A study of Homo sapiens with 6 samples.

Results

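The genes described are 9 members of the MHC class I pathway of antigen presentation: the class I heavy chains HLA-B, HLA-C and HLA-E, their shared light chain B2M, the peptide transporter subunits TAP1 and TAP2, the loading chaperone TAPBP, and the immunoproteasome subunits PSMB8 and PSMB9. They were chosen by name, and every probe whose single platform symbol is one of these names was taken, which gave 9 of the 20043 genes with such a symbol and 18 of the 47314 probes. Their levels were followed on 6 Illumina bead arrays of SKOV-3, an established human ovarian carcinoma cell line grown from a commercial stock. All cells were transfected with siRNA, 3 samples with a scramble sequence (siCtrl) and 3 with siRNA against HBO1 (siHBO1), and RNA was taken 48 h later. The KAT7 gene encodes HBO1, which acetylates histones, and the series asks what this enzyme does in SKOV-3. The labels give neither the siRNA sequences nor whether samples of a group were separate cultures, so a p-value here reflects sample-to-sample spread that may be technical.

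MHC class I molecules show fragments of the cell's own proteins to cytotoxic T cells. The proteasome cuts the proteins, and interferon exchanges its constitutive catalytic subunits for PSMB8, PSMB9 and PSMB10, which changes the peptides made. TAP1 and TAP2 together carry the peptides into the endoplasmic reticulum, where TAPBP, also called tapasin, holds an empty heavy chain paired with B2M next to the transporter until a peptide fits. HLA-B and HLA-C present to T cells and are read by natural killer cells, and HLA-E displays leader peptides of other class I chains to natural killer cell receptors. The genes share control by interferon through ISRE elements bound by IRF1 and related factors, by NF-kB at sites near several of the promoters, and by the activator NLRC5, and many tumours lower some of them.

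Between 42.2% and 44.3% of probes were detected per array, with mean intensities of 643 to 744, and the number of arrays limits the precision. KAT7 had log2 values of 5.93, 6.49 and 6.45 on siCtrl 1 to 3 and of 4.77, 5.22 and 5.45 on siHBO1 1 to 3. Its difference was -1.14 log2 (SE 0.25, by limma unadjusted p 0.0013 and adjusted p 0.999). Its probe was detected on 3 of 3 siCtrl and 1 of 3 siHBO1 arrays, and the difference was -0.37 without background correction. The two-sided exact permutation p was 0.1, the smallest that 3 arrays against 3 allow. Among markers of SKOV-3 cells 7 of 8 were measured, ERBB2, PAX8 and the keratins among them, without MUC16. Of 11 leukocyte and antigen-presenting cell markers 4 were measured (CD14, CD68, ITGAM and HLA-DRA), with a mean level of 7.71 to 8.06 log2 per array, while PTPRC, CD3E, ITGAX, CD74, HLA-DRB1 and LYZ were below the filter. Of 8 fibroblast and endothelial markers only COL1A1 and COL1A2 were measured, with a mean level of 7.67 to 10.14 on the siHBO1 and 7.35 to 8.95 on the siCtrl arrays. In RNA from whole cultures, fewer cells of a type and less RNA per cell cannot be told apart.

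Promoter windows are shown because the genes share control by interferon and several of them by NF-kB (above), and the letters let those elements be seen. A relation of these elements to the variation between arrays (below) was not tested. RefSeq's table for GRCh38.p14 gave windows from 250 bases before to 50 after the start site for 8 of the 9 genes, 10 windows in all with a pair each for TAP1 and PSMB8. HLA-E has no entry there. Capitals mark matches on either strand to the ISRE core (GAAA, any 2 bases, GAAA) or to the NF-kB consensus, and each sequence is written 5′ to 3′ on the strand of its gene.
TAPBP, chr6:33314029-33314328, minus strand: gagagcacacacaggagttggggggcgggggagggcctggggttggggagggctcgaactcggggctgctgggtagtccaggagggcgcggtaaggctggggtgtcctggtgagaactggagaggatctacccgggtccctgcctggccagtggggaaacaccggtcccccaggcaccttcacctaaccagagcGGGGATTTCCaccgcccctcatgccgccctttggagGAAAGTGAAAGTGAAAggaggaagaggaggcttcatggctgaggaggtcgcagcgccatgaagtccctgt
B2M, chr15:44711267-44711566, plus strand: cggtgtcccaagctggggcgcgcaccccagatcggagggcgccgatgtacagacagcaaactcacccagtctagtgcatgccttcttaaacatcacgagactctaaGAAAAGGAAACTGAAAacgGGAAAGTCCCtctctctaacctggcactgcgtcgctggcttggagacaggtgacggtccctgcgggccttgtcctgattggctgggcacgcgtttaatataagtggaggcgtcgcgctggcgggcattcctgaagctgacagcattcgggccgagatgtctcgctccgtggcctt
TAP1, chr6:32853655-32853954, minus strand: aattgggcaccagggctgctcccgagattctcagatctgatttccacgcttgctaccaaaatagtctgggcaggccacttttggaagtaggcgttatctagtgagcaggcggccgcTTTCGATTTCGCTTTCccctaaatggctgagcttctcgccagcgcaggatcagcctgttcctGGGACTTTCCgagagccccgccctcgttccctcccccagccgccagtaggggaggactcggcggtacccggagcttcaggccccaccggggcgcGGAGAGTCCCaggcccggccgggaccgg
HLA-B, chr6:31357130-31357429, minus strand: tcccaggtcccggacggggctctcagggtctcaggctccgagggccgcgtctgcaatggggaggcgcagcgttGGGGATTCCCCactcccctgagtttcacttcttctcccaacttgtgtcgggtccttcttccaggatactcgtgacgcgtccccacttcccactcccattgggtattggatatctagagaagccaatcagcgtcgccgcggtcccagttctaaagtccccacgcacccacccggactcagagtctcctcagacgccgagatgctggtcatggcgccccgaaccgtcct

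Shorter stretches around the matches are given for the remaining genes that have one.
HLA-C, chr6:31272240-31272279, minus strand: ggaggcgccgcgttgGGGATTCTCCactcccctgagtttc
TAP2, chr6:32838773-32838812, minus strand: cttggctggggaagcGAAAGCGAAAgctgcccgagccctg
PSMB8, chr6:32844027-32844066, minus strand: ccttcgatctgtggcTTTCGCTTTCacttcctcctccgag
The ISRE core was found in 5 of the 10 windows (B2M, TAP1, TAP2, TAPBP and the second PSMB8 window), against 3.57% of all 35116 windows in the table. In B2M, TAP1 and TAPBP pairs of overlapping matches formed a run of 3 repeats. The NF-kB consensus was found in 5 windows (HLA-B, HLA-C, B2M, TAP1 and TAPBP), against 5.91% of all windows. The GAS motif TTCNNNGAA was in 2 windows (7.66% of all) and the CCAAT box in 5 (34.6% of all). The CCAAT matches of TAP1 and PSMB9 are the same 5 bases, which lie in both windows. The HLA-B and HLA-C windows were 88.5% identical over 304 aligned columns, and the PSMB9 window, which shares 13 bases with that of TAP1, held neither an ISRE core nor an NF-kB match. TAP2, PSMB8, TAP1 and PSMB9 lie side by side within 38.0 kb (chr6:32821831-32859851), and the start sites of TAP1 and PSMB9 are 488 bases apart on opposite strands. A match is a run of letters and was not tested as a binding site. Only these exact patterns were searched, so a window without a match may still hold a variant of the element.

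**Figure D1:**
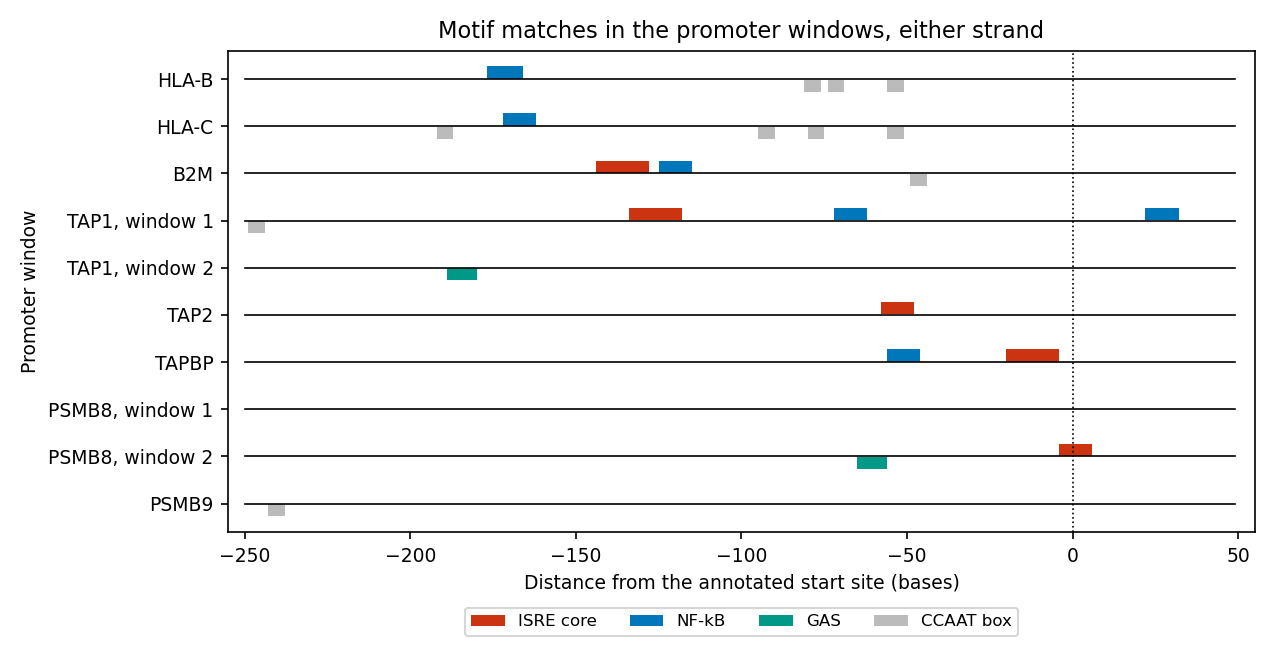
Motif matches by distance in bases from the annotated start site (dotted line) in the 10 promoter windows of 8 genes, on either strand. Red boxes are ISRE cores, blue boxes NF-kB consensus matches, green boxes GAS motifs and grey boxes CCAAT boxes. ISRE cores stand in 5 windows and the NF-kB consensus in 5.

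Intensities were background-corrected against the negative controls, quantile-normalized and put on the log2 scale, and 16 of the 18 probes, with at least 1 for each of the 9 genes, were kept because their detection p was below 0.05 on 3 or more of the 6 arrays. Levels of different probes are not compared, since probes bind with different strength. Not kept were the second HLA-C probe (ILMN_2150787, detection p 0.691 to 0.979) and another TAPBP probe (ILMN_1782851, detection p 0.0533 to 0.674). The heavy chain genes are highly variable between people and alike among themselves, so a probe may miss the alleles of a cell line or take up another chain's transcript, and the HLA values are uncertain in this respect.

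None of the 16 kept probes passed the comparison of siHBO1 with siCtrl in limma (adjusted p 0.999 for each, against 0% called among all 20744 kept probes). Nor did any reach an unadjusted p under 0.05, where 3.73% of all kept probes did (1.73% higher and 2.01% lower with siHBO1). A log2 change of at least 1 in size was seen for 0 of 16, against 0.082% of all kept probes. Log2 changes ran from -0.36 to 0.66, with 12 of 16 above 0 (50.1% of all kept probes) and 4 below (49.9%), and a median of 0.21, against 0.00 over all kept probes. The 95% interval of every member probe included 0, with a median width of 0.50 to either side. The genes are described in turn, in the order of heavy chains, light chain, transporter, chaperone and proteasome.

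HLA-B had log2 values of 9.72, 9.18 and 8.94 on siCtrl 1 to 3 and of 10.12, 9.09 and 9.85 on siHBO1 1 to 3. Group means were 9.28 ± 0.40 and 9.69 ± 0.54 (SD, n = 3). The groups overlapped, since siHBO1 2 lay below siCtrl 1 and 2. The change was 0.40 (SE 0.29, 95% interval -0.26 to 1.07, limma adjusted p 0.999), and the siHBO1 arrays differed among themselves by up to 2.05-fold. Without siHBO1 2 the change was 0.70, without siCtrl 1 0.62 and without siHBO1 1 0.19, and none of these passed (adjusted p 0.437, 0.998 and 1.00).

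HLA-E was at 11.02, 11.15 and 11.32 on siCtrl 1 to 3 and at 11.66, 11.16 and 11.79 on siHBO1 1 to 3. siHBO1 1 and 3 lay above all controls, and siHBO1 2 lay within them. This gave a change of 0.37 (SE 0.18, 95% interval -0.03 to 0.78, unadjusted p 0.0651), the smallest unadjusted p of the 16 probes. Without siHBO1 2 it was 0.56 (limma adjusted p 0.265), without siHBO1 3 0.25.

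HLA-C was close to background, with 5.46, 5.62 and 5.39 on siCtrl 1 to 3 and 5.22, 5.76 and 5.26 on siHBO1 1 to 3 for its kept probe, ILMN_1721113. This probe was detected on 3 of 3 siCtrl and 2 of 3 siHBO1 arrays, with detection p of up to 0.061. The change was -0.07 (SE 0.21), and 0.02 without siHBO1 1 and 0.00 without siHBO1 3.

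B2M, which pairs with all these heavy chains, had a pair of bright probes. ILMN_1725427 was at 13.92, 13.92 and 13.84 on the control arrays and at 13.79, 13.52 and 13.86 on those with siHBO1, a change of -0.17 (SE 0.10, 95% interval -0.39 to 0.06). ILMN_2148459 was at 12.96, 12.80 and 12.72 on the control arrays and at 12.83, 13.15 and 12.63 on those with siHBO1, a change of 0.04 (SE 0.14, 95% interval -0.27 to 0.36). The array that was lowest for the first probe, siHBO1 2, was the highest for the second. The intervals reached down to -0.39 for the first probe and up to 0.36 for the second in this fit. They are not bounds, since without siHBO1 3 the first probe was at -0.24 (SE 0.10).

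TAP1 was the member with the least spread between arrays. It had log2 values of 10.63, 10.66 and 10.69 on siCtrl 1 to 3 (SD 0.03) and of 10.83, 10.92 and 10.98 on siHBO1 1 to 3 (SD 0.08), so that every siHBO1 array lay above every siCtrl array. The change was 0.25 or 1.19-fold (SE 0.12, 95% interval -0.02 to 0.52, unadjusted p 0.066, limma adjusted p 0.999). It was 0.22 to 0.29 with any 1 array left out. TAP1 was the only kept member probe whose groups did not overlap, 1 of 16, and over all kept probes 9.98% did not overlap, 5.43% with siHBO1 higher and 4.55% with siHBO1 lower. Its pooled SD within groups, 0.06, was at the 2.2 percentile of all 11917 named genes, and the SE above is wider than these 6 values alone would give because limma draws the variance of each probe towards that of probes of like intensity.

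TAP2, the partner of TAP1, had log2 values of 7.08, 6.47 and 6.74 on siCtrl 1 to 3 and of 7.48, 6.88 and 6.89 on siHBO1 1 to 3 by ILMN_1759250 (change 0.32, SE 0.24). By ILMN_1777565 it had 8.14, 7.90 and 7.93 on the control arrays and 8.14, 8.68 and 7.91 on those with siHBO1 (change 0.25, SE 0.22). Groups overlapped for both, and the array that stood highest differed, siHBO1 1 for the first and siHBO1 2 for the second. Without background correction the changes were 0.16 and 0.18.

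TAPBP was measured by ILMN_1742450 at 9.01, 9.47 and 9.68 on siCtrl 1 to 3 and at 9.46, 9.36 and 9.98 on siHBO1 1 to 3, a change of 0.21 (SE 0.23). ILMN_1773031, listed for another transcript, was dim at 5.39, 5.80 and 5.82 on the control arrays and 5.26, 4.95 and 5.70 on those with siHBO1, a change of -0.36 (SE 0.25) that came to -0.11 without background correction. It was detected on 3 of 3 siCtrl and 1 of 3 siHBO1 arrays. The changes of these probes had opposite signs, but both ordered the arrays the same way within each group.

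PSMB8, the immunoproteasome counterpart of PSMB5, had 4 probes. The brightest, ILMN_2390299, was at 9.56, 9.68 and 9.87 on the control arrays and at 10.01, 9.42 and 10.55 on those with siHBO1, with a change of 0.29 (SE 0.26). Its siHBO1 values span 2.19-fold, and they enclosed all siCtrl values. The change was 0.58 without siHBO1 2 and 0.01 without siHBO1 3, so that single arrays of that group set its size. The other probes had changes of 0.20 (ILMN_1747195, SE 0.19), 0.02 (ILMN_1767006, SE 0.27) and -0.11 (ILMN_2284794, SE 0.21), with siHBO1 3 the highest of the 6 arrays on each of the 4.

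PSMB9, the counterpart of PSMB6, showed the widest difference. ILMN_2376108 had log2 values of 5.68, 6.35 and 6.60 on siCtrl 1 to 3 and of 6.86, 6.17 and 7.57 on siHBO1 1 to 3. Group means were 6.21 ± 0.48 and 6.87 ± 0.70 (SD, n = 3). The groups overlapped, with siHBO1 2 below 2 of the 3 controls, and the spread within siHBO1 (2.64-fold) exceeded the difference between the groups (1.58-fold). The change was 0.66 (SE 0.37, 95% interval -0.18 to 1.49, limma adjusted p 0.999), 1.01 without siHBO1 2 (adjusted p 0.41), 0.31 without siHBO1 3, 0.39 without siCtrl 1 and 0.29 without background correction. The other probe, ILMN_1798233, had log2 values of 5.83, 5.96 and 5.62 on the control arrays and 6.07, 5.80 and 5.84 on those with siHBO1, a change of 0.10 (SE 0.19), and did not show the high value on siHBO1 3.

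**Figure D2:**
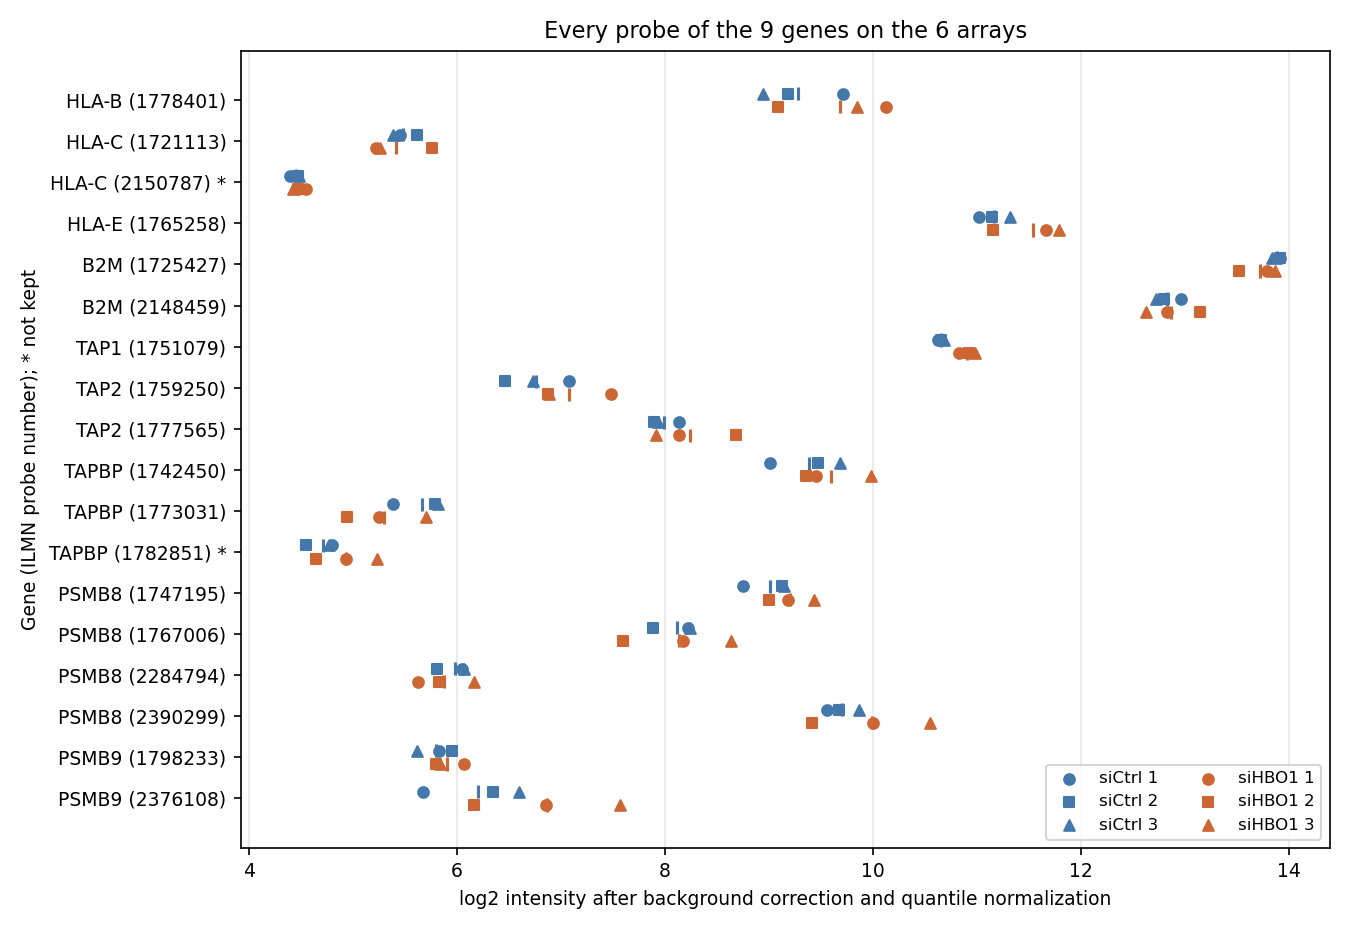
Log2 intensity of each of the 18 probes on the 6 arrays, siCtrl in blue above and siHBO1 in orange below, with circles, squares and triangles for replicates 1 to 3 and a short bar at each group's mean. TAP1 is the kept probe whose groups do not overlap, and an asterisk marks the 2 probes that were not kept.

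**Figure D3:**
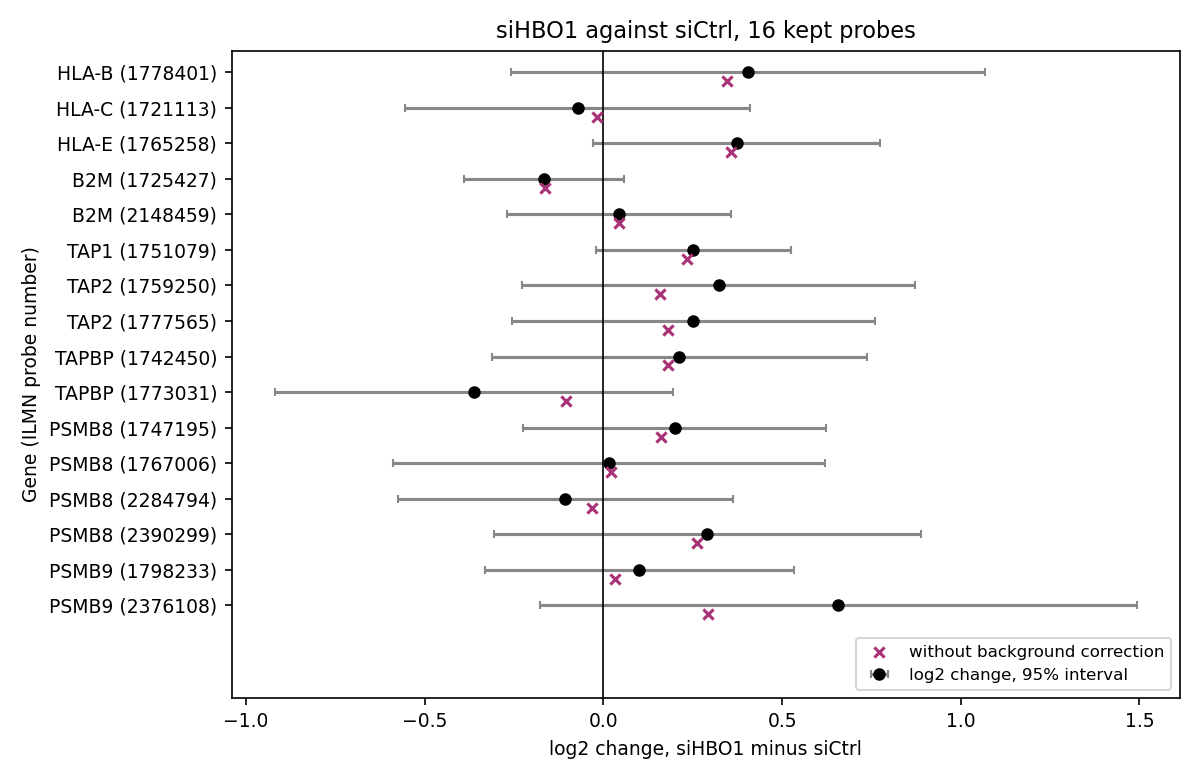
Log2 change of siHBO1 against siCtrl for the 16 kept probes, with points at the limma estimate, bars for its 95% interval and crosses for the change without background correction. All 16 intervals include 0, and estimates run from -0.36 to 0.66.

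For 15 of the 16 probes the widest range within a group exceeded the difference between the groups, and over all kept probes this held for 94.9%. The differences within groups were therefore described array by array, as deviations from the mean of the own group, with the brightest probe of each gene. The immunoproteasome genes and the chaperone varied together across the arrays. PSMB9 deviated by -0.53, 0.14 and 0.39 in the controls (replicates 1 to 3) and by -0.00, -0.70 and 0.70 with siHBO1. PSMB8 deviated by -0.14, -0.02 and 0.17 in the controls (replicates 1 to 3) and by 0.01, -0.57 and 0.56 with siHBO1. TAPBP had -0.38, 0.08 and 0.30 on siCtrl 1 to 3 and -0.14, -0.24 and 0.38 on siHBO1 1 to 3. Each was lowest on siCtrl 1 and siHBO1 2 of its group and highest on siCtrl 3 and siHBO1 3, and HLA-E had the same order, with -0.14, -0.01 and 0.16 on the control arrays and 0.13, -0.38 and 0.25 on those with siHBO1.

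The 37 measured genes of an interferon response list, from which the 9 members were left out, varied in the same way. Their mean deviated by -0.25, 0.11 and 0.14 in the controls (replicates 1 to 3) and by -0.15, -0.28 and 0.43 with siHBO1. GBP2, an interferon-induced GTPase, deviated by -1.34 on siCtrl 1, where it was close to background (detection p 0.032), and by 1.61 on siHBO1 3. IFIT1, an RNA sensor, deviated by -1.12 and 1.45 on these arrays. Both were chosen after their values were seen, and ISG20 of the same list ran the other way, with 0.51 and -0.87. As a measure of likeness over the 6 arrays, Pearson's r with this mean was 0.95 for PSMB9 by ILMN_2376108 (-0.18 by its other probe), 0.95 and 0.98 for the TAPBP probes, 0.56 to 0.94 for the 4 PSMB8 probes and 0.79 for HLA-E. These values are descriptions: the points share arrays and RNA, and the deviations of each group sum to 0. No share of all genes at such an r with the interferon mean is given here. With the mean of the 9 genes, 339 of 4800 detected genes outside the members had an r of at least 0.9, so high values are not particular to these genes. Of the 37 interferon genes 33 had a positive r with the mean deviation of the 9 genes, against 6345 of 11917 named genes.

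The brightest probes of the other genes had other orders. HLA-B deviated by 0.44, -0.10 and -0.34 on the control arrays and by 0.44, -0.60 and 0.16 on those with siHBO1, high on the first array of each group (r = 0.00 with the interferon mean). The 15 measured NF-kB and cytokine genes, such as IL6 and CXCL8, were also high there, with a mean deviation of 0.87 on siCtrl 1 and 0.65 on siHBO1 1, but of 0.14 on siHBO1 2, where HLA-B was lowest. That list deviated by -0.53 and -0.34 on siCtrl 2 and 3 and by -0.79 on siHBO1 3, and its sign was opposite to that of the interferon list on all 6 arrays. The means of both lists had an r of -0.87 with each other. With the NF-kB and cytokine mean, r was -0.74 for PSMB9 by ILMN_2376108 and 0.31 by its other probe. It was -0.89 and -0.80 for the TAPBP probes, -0.85 to -0.24 for the PSMB8 probes, -0.44 for HLA-E and 0.44 for HLA-B. Rising with the interferon list and falling with this list were thus not told apart. TAP2 by ILMN_1759250 was high on the same first arrays (0.32 and 0.40), and by ILMN_1777565 on siHBO1 2 (0.44). For TAP2, r with the interferon mean was -0.50 by the former and -0.84 by the latter.

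TAP1, which stands between PSMB8 and PSMB9 in the genome, deviated by 0.08 at most. It was highest on siCtrl 3 and siHBO1 3 and lowest on siCtrl 1 and siHBO1 1. Its r was 0.72 with the interferon mean and -0.84 with the NF-kB and cytokine mean. The B2M probes had r values of opposite sign with the interferon mean, 0.58 for ILMN_1725427 and -0.90 for ILMN_2148459. The former deviated by 0.03, 0.03 and -0.05 among the controls and by 0.07, -0.21 and 0.14 among the siHBO1 samples. HLA-C deviated by -0.03, 0.13 and -0.10 among the controls and by -0.19, 0.35 and -0.15 among the siHBO1 samples, an r of -0.44 with the interferon mean.

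Probes of 1 gene differed in this as well. The deviations of the B2M probes ran opposite ways (r = -0.78), those of TAP2 were unrelated (0.02), those of PSMB9 likewise (-0.09), and those of TAPBP alike (0.94). Among the 6 pairs of PSMB8 probes r was 0.28 to 0.92. With 1 probe per gene, the pooled SD within groups had a median of 0.29 over the 9 genes and of 0.22 over all named genes, and it was 0.60 for PSMB9 (96.1 percentile), 0.47 for HLA-B (91.5) and 0.42 for PSMB8 (87.6).

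**Figure D4:**
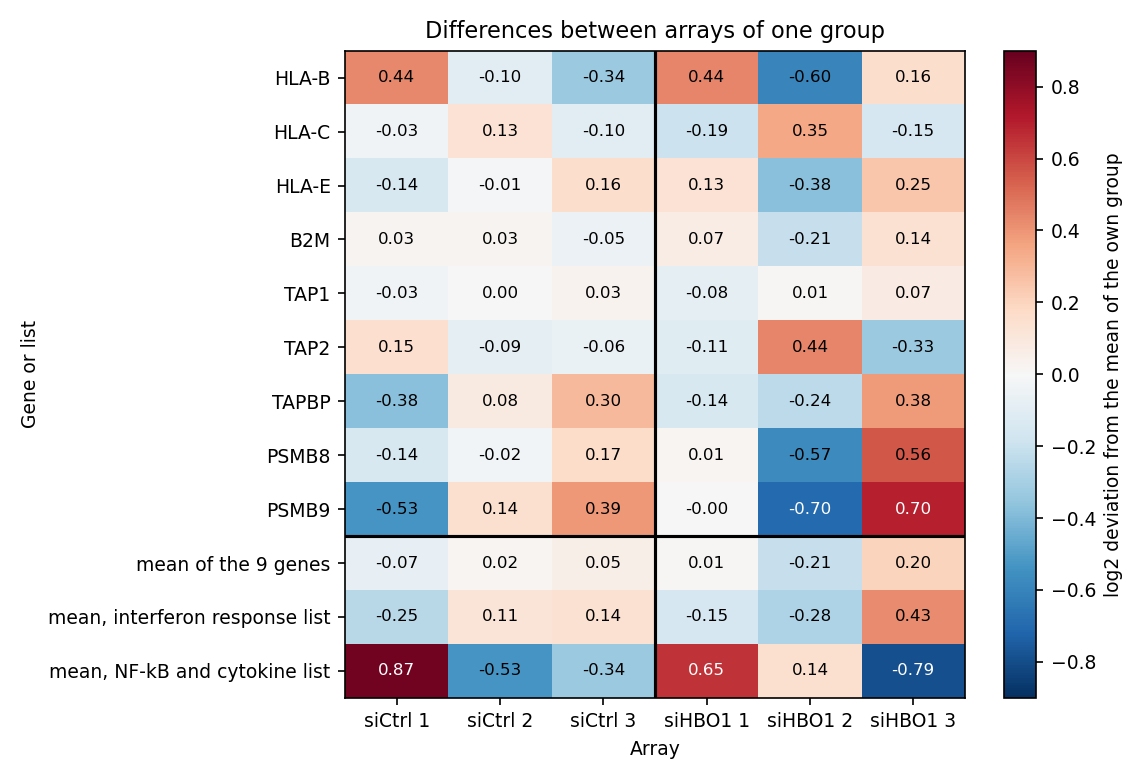
Log2 deviation of each array from the mean of its own group, for the brightest probe of each of the 9 genes and, below the line, for the means of the 9 genes, of 37 interferon response genes and of 15 NF-kB and cytokine genes. Red is above and blue below the group mean. PSMB9, PSMB8, TAPBP and HLA-E share their highest array in each group (siCtrl 3 and siHBO1 3) with the interferon mean.

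**Figure D5:**
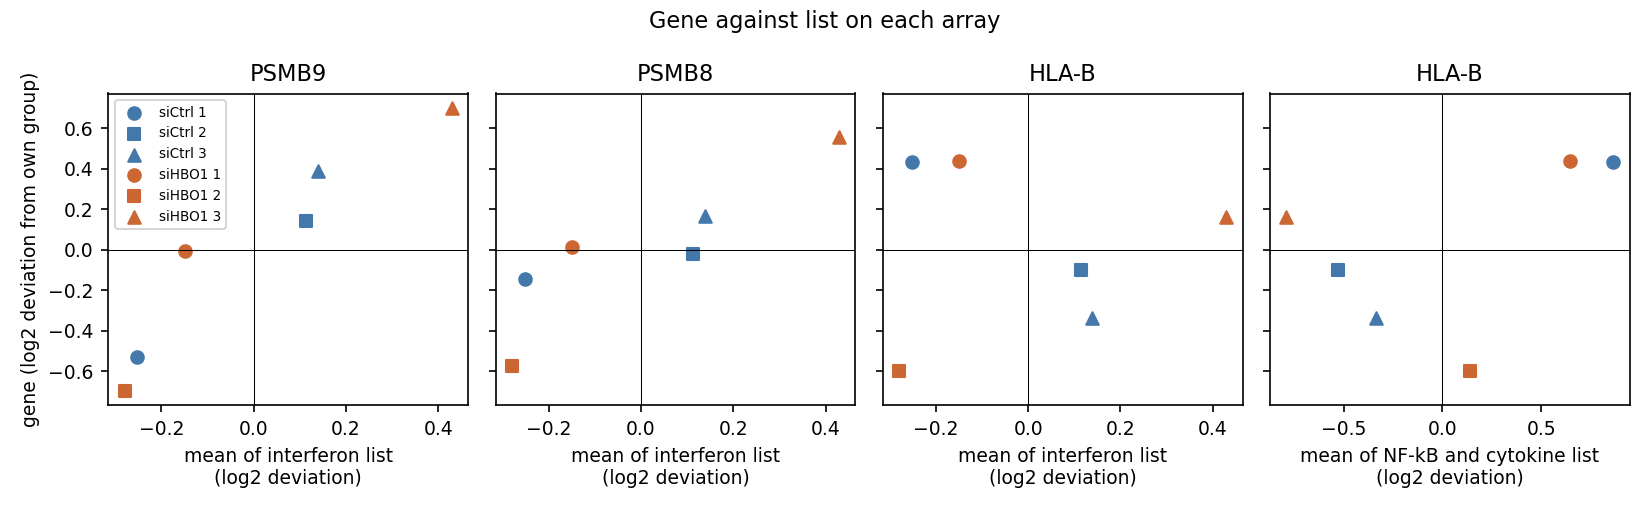
Deviation of PSMB9, PSMB8 and HLA-B from the own group's mean (vertical, log2) against the mean deviation of the interferon list or, in the last panel, of the NF-kB and cytokine list (horizontal, log2), 1 point per array. PSMB9 runs from -0.70 to 0.70 along the interferon mean, and HLA-B is highest on siCtrl 1 and siHBO1 1.

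The interferon list had mean levels of 7.81, 8.17 and 8.20 log2 on siCtrl 1 to 3 and of 7.92, 7.79 and 8.50 log2 on siHBO1 1 to 3, so the groups overlapped, and its genes had a median change of 0.04. Its part in the changes of the 9 genes between the groups was not tested, nor was what sets the differences between arrays.

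The 5 genes whose deviations were most like the mean of the 9 genes, among 4800 detected genes with an SD of at least 0.2, were RAB5B, a small GTPase of endosomes, THYN1, BBS1, a subunit of the ciliary BBSome, PCCA, a subunit of propionyl-CoA carboxylase, and PGLS, an enzyme of the pentose phosphate pathway. Their Pearson r over the 6 arrays was 0.995 to 0.999, and 339 of the 4800 had an r of at least 0.9, so this order separates few of them.

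Genes next to the members in the pathway were taken from lists. Of 8 measured further class I and class I-like chains 0 passed the test in either direction (median change 0.13). ULBP2, a stress ligand for natural killer cells, was at 0.35 (SE 0.21) and MICA at 0.22 (SE 0.18). Of 8 peptide loading and trimming genes 0 passed (median -0.03), with GANAB, a glucosidase of the glycoprotein folding cycle, at -0.18 (SE 0.14) and ERAP2, a peptide-trimming aminopeptidase, at 0.20 (SE 0.20) and, by another probe, at 0.14.

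Of 9 further proteasome genes 0 passed (median 0.03). PSMB10, the remaining inducible catalytic subunit, was at 11.75, 12.11 and 12.14 on siCtrl 1 to 3 and at 12.23, 12.22 and 12.38 on siHBO1 1 to 3, without overlap, a change of 0.27 (SE 0.13, limma adjusted p 0.999). In this list 1 of 9 genes had groups without overlap, close to the 9.98% of all kept probes. The constitutive counterparts PSMB5, PSMB6 and PSMB7 had changes of 0.09 (SE 0.10), 0.07 (SE 0.11) and -0.03 (SE 0.08). POMP, the maturation factor of the proteasome, was at -0.15 (SE 0.09).

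Of 17 measured regulators 0 passed (median -0.02). IRF1, which binds ISRE elements, was at 10.14, 9.83 and 9.65 on siCtrl 1 to 3 and at 10.49, 10.14 and 9.71 on siHBO1 1 to 3, a change of 0.24 (SE 0.22), with its highest value in each group on the arrays where HLA-B was highest. RFXANK, a subunit of the RFX complex at class I and II promoters, was at 0.23 (SE 0.12) by one probe and at -0.00 and 0.02 by others, and SOCS1, an inhibitor of interferon signalling, at -0.23 (SE 0.21, -0.064 without background correction, detected on 1 of 3 siHBO1 arrays). NLRC5 and CIITA were below the filter. Of the class II list 3 of 10 genes were measured, with HLA-DMB at 0.25 (SE 0.43) and HLA-DMA at 0.11 (SE 0.38). HLA-DRA was at -0.03 (SE 0.16) by the brighter of its 2 kept probes. HLA-DMA and HLA-DMB had their highest value on siHBO1 3 (7.87 and 7.72) and their lowest siCtrl value on siCtrl 1 (6.40 and 5.91).

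Of the 37 interferon genes 0 passed, 22 above and 15 below 0, with LGALS3BP at 0.54 (SE 0.29) and IFIH1 at -0.37 (SE 0.24, -0.11 without background correction). Of the 15 NF-kB and cytokine genes 0 passed (median 0.20), with IER3 at 0.37 (SE 0.21) and TNF, detected on 1 of 3 siCtrl arrays, at 0.61 (SE 0.38, 0.19 without background correction). Among the marker lists 0 genes passed. PAX8 was at 0.27 and by another probe at -0.13, KRT8 at 0.24, CD14 at 0.38 (0.15 without background correction), CD68 at -0.15 and by other probes at -0.11 and 0.29, COL1A1 at 0.35 (SE 0.66) and COL1A2 at 0.20 (SE 0.64) and by another probe at 0.51. COL1A1 also followed the arrays, with 7.85 on siCtrl 1 and 10.89 on siHBO1 3, and the part of these cultures' differences in the results above was not tested.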

How the data were processed

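The deposited intensity of a probe is linear and comes, per the file headers, as the average over its beads, with no scaling between arrays visible in the values. The deposited detection p-value is labelled as such per the file headers and was taken to set a probe against its array's negative controls. The authors' deposited table is on a log2 scale by its values (median 5.99 in each column, ranks as the intensities), with no centring by gene visible and levels rather than ratios. What background step preceded it is not stated. Per the submitters' processing notes the tools were GenomeStudio and lumi, with neither version nor role.

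Probes were named through the platform's table (30110 with 1 symbol, 8 with several, 17196 with none). Intensities went through neqc (offset 16) in limma 3.58.1 under R 4.3.3 with statmod 1.5.0. The 20744 probes whose detection p was below 0.05 on 3 or more of 6 arrays were fitted (lmFit, then eBayes with trend) on group alone, each probe as its own row. Tests were two-sided, with Benjamini-Hochberg adjustment over all these probes and a threshold of 0.05. In 10 simulated sets for siHBO1 against siCtrl on 20744 probes, the fit recovered 6% of changes by 1.5-fold, 32.8% by 2-fold and 73% by 3-fold, with 5.5 false calls on average. Each set had 200 changed probes, by up to 4-fold, and noise drawn independently for each probe. The real arrays have deviations shared between probes, so these rates may be too high for them.

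The members and all lists were chosen with earlier results of these data known. All members are named with every probe, and KAT7, PSMB5, PSMB6, PSMB7, IRF1 and NLRC5 always, apart from 1 gene of the rule that is not reported here. From each list come genes past the threshold, otherwise the 2 with the smallest p, and then the 5 genes most alike in deviation. GBP2, IFIT1, IL6, CXCL8, HLA-DRA, HLA-F, ISG20 and other single genes were chosen after their values were seen. Alternatives were other background corrections, scalings, filters and values, 1 probe per gene, array weights, a replicate block and arrays left out. A slide block could not be fitted, since the labels give no slide.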

Additional observations from a re-analysis of the deposited data

How the results depend on the processing

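Of the 16 kept probes 0 passed in any of the 15 other settings (smallest limma adjusted p 0.265, for HLA-E without siHBO1 2), and 221 of 231 values had the reported sign. The median change of the members was 0.11 to 0.27 with any 1 array left out, 0.12 with median scaling (which shifted all probes to -0.05) and with array weights, and 0.014 without siCtrl 1 and siHBO1 3, a fit added after the data were seen. Those arrays held the lowest control and the highest siHBO1 values of the interferon list, so that choice itself lowers the changes of genes that vary with it. With arrays left out, the added fit included, changes that turned sign ran from -0.25 to 0.025 for HLA-C, from -0.096 to 0.23 for B2M (ILMN_2148459), and from -0.17 to 0.36 for TAPBP (ILMN_1742450). For PSMB8 they ran from -0.044 to 0.30 (ILMN_1747195), -0.23 to 0.29 (ILMN_1767006), -0.25 to 0.015 (ILMN_2284794) and -0.061 to 0.58 (ILMN_2390299). Median scaling gave -0.0055 for that B2M probe and -0.054 for PSMB8 ILMN_1767006. Over all probes 0 were called, against 774 at an unadjusted p under 0.05, with 1 called with array weights, 4 with the replicate block and 1 in the added fit; the cause was not tested. Without siHBO1 2, 4 member probes (HLA-B, HLA-E, PSMB8 ILMN_2390299 and PSMB9 ILMN_2376108) had an unadjusted p under 0.05, as had 9.71% of all probes. The samples were not taken as paired, since the labels give replicate numbers but no pairing. Arrays with the same number had correlations of deviation of 0.558, 0.0217 and 0.463, and whether they share a replicate effect was not tested. In this balanced design a replicate block cannot alter a change, only its SE. The SE went from 0.29 to 0.19 for HLA-B and from 0.19 to 0.21 for PSMB9 ILMN_1798233. With the block 2 member probes (HLA-E and PSMB9 ILMN_2376108) had an unadjusted limma p under 0.05, as had 6.79% of all probes. With array weights 3 (HLA-B, HLA-E and TAP2 ILMN_1759250) were there (7.58% of all), and 2 on leaving out siHBO1 3 (4.86%). Those 2 were lower with siHBO1, B2M ILMN_1725427 at -0.24 and TAPBP ILMN_1773031 at -0.56. In the added fit only TAPBP ILMN_1773031 was there, at -0.70 (9.9% of all), and without the filter on dim probes only HLA-E (3.82%). KAT7 was at -1.34 to -0.37 in the 14 of these settings that keep its probe (adjusted p 0.267 to 1.00). Detection on all 6 arrays removed HLA-C and TAPBP ILMN_1773031. Signal close to background limits HLA-C, PSMB9, the dim TAPBP and PSMB8 probes and TAP2 ILMN_1759250.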

Other observations

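ERAP2 was among the detected peptide-trimming genes, at 12.32, 12.56 and 12.62 log2 on siCtrl 1 to 3 and at 12.25, 13.14 and 12.73 on siHBO1 1 to 3. HLA-DRA, a class II chain of professional antigen-presenting cells, was detected on all 6 arrays at 8.44 to 8.78 log2 by the brighter of its 2 kept probes. Probes of the HLA-DRA partner HLA-DRB1, of the invariant chain CD74 and of the class II activator CIITA were below the filter. HLA-F, a class I chain with restricted surface expression, was at 10.19, 9.79 and 10.05 on the siCtrl and at 10.50, 9.79 and 10.40 on the siHBO1 arrays (change 0.22, SE 0.21). These HLA-F values are from the brighter of its 2 kept probes. Of the 37 interferon genes 4 had a negative r with the mean deviation of the 9 class I pathway genes: ISG20, XAF1, IFI44 and WARS1. ISG20 stood 0.51 above its group mean on siCtrl 1 and deviated by -0.87 on siHBO1 3.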
